A study of Mus musculus with 26 samples.

Results

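Cocaine and saline were compared after withdrawal in 6 of the 26 RNA-seq libraries of a mouse study, 3 that followed cocaine self-administration and 3 that followed saline self-administration. They are the withdrawal libraries with library numbers up to 1825, called library set 1 here. The other 8 withdrawal libraries of the study, 5 cocaine and 3 saline, have higher library numbers, form library set 2 and are used only as a second measurement of the same contrast. All animals were adult mice of the Drd2-TRAP line CP101 on a mixed FVB/N-Swiss Webster background that had been crossed to C57BL/6 for at least 9 generations, trained to take the agent intravenously with long access, and the tissue was the accumbens nucleus. The saline group is labelled saline followed by withdrawal (replicates 1, 2 and 3). The cocaine group is labelled nonescalating, meaning that intake did not escalate, followed by withdrawal (replicates 1, 2 and 4). The dose, the length of withdrawal, and the sex and exact age of the animals are not stated in the labels used here.

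In TRAP, a tagged ribosomal protein is made only in cells that use a chosen promoter, and the RNA bound to the tagged ribosomes is pulled down with an antibody against the tag. Here the Drd2 promoter drives the tag, which in the accumbens marks the medium spiny projection neurons of the indirect pathway and the cholinergic interneurons. The D2 dopamine receptor couples to inhibitory G proteins and lowers cAMP, so these neurons are restrained by the dopamine that cocaine lets accumulate at the synapse, and lasting changes in their receptors, channels and gene regulation have long been studied in cocaine withdrawal. The transgene marks cells by promoter use in 1 line, so the libraries report ribosome-bound RNA of the tagged cells together with whatever untagged RNA is carried through the pull-down. In such bulk samples fewer cells of a type and less RNA per cell cannot be told apart.

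The libraries differed in depth between and within the groups. Counts in genes were 1.94, 11 and 5.27 M (M for 1e6 counts) in saline replicates 1, 2 and 3, and 6.12, 10.5 and 14.3 M in cocaine replicates 1, 2 and 4, so the shallowest library was a saline library and the deepest a cocaine library. A count of 3 corresponded to 1.55 counts per M (CPM) in saline replicate 1 and to 0.21 CPM in cocaine replicate 4. The share of records that fell in no annotated gene was high in replicate 1 of both groups, at 52.3% and 52%, and 34.4% to 36.4% in the other 4 libraries. The share aligned to more than 1 place was 36.7% in saline replicate 2, 33.8% in cocaine replicate 4 and 13.7% to 19.1% in the others. Such records did not enter the gene counts. Across genes, the log levels of pairs of libraries correlated with Pearson's r of 0.747 to 0.858 within saline, 0.827 to 0.871 within cocaine and 0.784 to 0.880 between the groups, so the 3 ranges overlapped. Genes within a library are not independent replicates, and no label says that the libraries came from separate animals. The p-values below therefore set a group difference against the spread between libraries, which may not be that between animals. For the set 1 contrast this spread was estimated over all 16 immunopurified libraries of the set. The overlap of antisense or nested genes could not be resolved, since the sources used here give neither the annotation nor the strand setting of the counting.

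Markers of the labelled D2 neurons were present in every library. Drd2 was at 856, 3020.3 and 2320.4 CPM in the saline libraries and at 1435, 2364 and 1973 CPM in the cocaine libraries, against 296 and 379 CPM in the study's 2 input libraries, which hold total RNA from animals without withdrawal. The 10 D2 neuron markers summed to 4215 to 8814 CPM after saline and to 4584 to 8529.5 CPM after cocaine, and the inputs had 1561 and 1946 CPM. Markers of D1 neurons, the other class of medium spiny neuron, summed to 215 to 353 and 173 to 412 CPM, below the 895 and 856 CPM of the inputs. The 7 tested markers of cholinergic interneurons summed to 23.3 to 101 and 50 to 118 CPM, also below the 125 and 204 CPM of the inputs. Vascular cells went the other way. The 12 endothelial markers summed to 6437, 1153 and 2149.9 CPM in saline replicates 1, 2 and 3 and to 7119, 3788 and 2828 CPM in cocaine replicates 1, 2 and 4, against 488 and 203 CPM in the inputs. The endothelial sum was therefore highest in replicate 1 of each group, the libraries with the high share of records outside genes, and the groups overlapped.

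**Figure D1:**
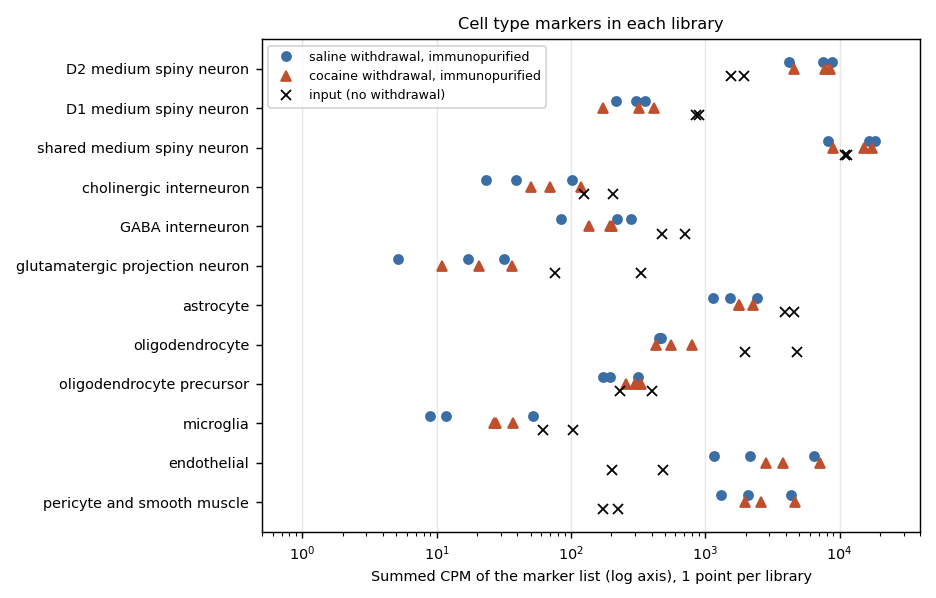
Summed level of each cell type's marker list in CPM (horizontal log axis), with 1 point for each of the 3 saline withdrawal libraries, the 3 cocaine withdrawal libraries and the 2 input libraries. D2 markers lie above the inputs and D1 markers below them in all 6 withdrawal libraries, endothelial and pericyte markers lie above the inputs, and saline and cocaine overlap for every list.

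No gene passed the test for a difference between cocaine and saline. With edgeR's quasi-likelihood test on the 16 immunopurified libraries of set 1, 0 of 16569 genes had a Benjamini-Hochberg adjusted p under 0.05, and the smallest adjusted p was 1. At an unadjusted p under 0.05 there were 334 genes (2.02%), of which 218 had a higher level after cocaine (1.32%) and 116 a lower level (0.7%). The same contrast gave 0 genes with limma voom and 8 with DESeq2, of which 7 had all 3 libraries of 1 group at 0. The groups were apart without overlap in 1248 genes, with cocaine the higher group in 813 (4.91%) and the lower in 435 (2.63%). An exact permutation test of 3 against 3 libraries cannot give a two-sided p below 0.1 for any of these. Non-overlap is therefore given below as a description of single genes and not as a sign of a difference. The fold change was above 0 in 8767 genes (52.9%), and its median over all genes tested was 0.05 on the log2 scale. The precision was low: of the 10796 genes whose mean log2 CPM reached 2 or more, the median standard error (SE) of the log2 fold change was 0.81, and 33.8% had an SE over 1.

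The remaining DESeq2 call was Pqlc3, a member of the PQ-loop family of membrane proteins, which is given here after its values were seen. Pqlc3 was at 0, 0.553 and 0.563 CPM after saline and at 35.9, 30.2 and 5.04 CPM after cocaine. Its log2 fold change was 5.76 ± 1.54 (SE) in edgeR with an unadjusted p of 0.00111 and an adjusted p of 1, and 5.82 in DESeq2 with an adjusted p of 0.0153. In set 2 the log2 fold change of Pqlc3 was 0.56 ± 1.25 and the groups overlapped.

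The 15 genes with the smallest unadjusted p among those higher after cocaine had log2 fold changes from 1.53 to 3.86, and in all 15 the groups did not overlap. Each had an adjusted p of 1 in edgeR's quasi-likelihood test. Non-overlap of this kind was seen in 4.91% of all genes, and these 15 were picked by p in the same contrast, so their separation is a description. Vps25, a subunit of the ESCRT-II complex that sorts membrane proteins into endosomes (chromosome 11, 101253707 to 101259549, plus strand, mm10, overlapping Ramp2 on the same strand), was at 10.3, 13.8 and 25.1 CPM after saline and at 81.0, 83.9 and 56.5 CPM after cocaine. The lowest cocaine library of Vps25 was above the highest saline library by a wide margin, and its log2 fold change was 2.16 ± 0.68 (SE) at an unadjusted p of 0.00413. Tpcn1, a cation channel of endosomes and lysosomes, was at 63.4, 44.9 and 53.5 CPM after saline and at 224, 148 and 95.6 CPM after cocaine, a log2 fold change of 1.53 ± 0.57. Gca encodes grancalcin, a calcium-binding protein. It was at 5.60, 4.89 and 4.31 CPM after saline and 35.3, 34.8 and 30.1 CPM after cocaine, which made it the gene with nearly equal libraries within both groups, with a log2 fold change of 2.76 ± 1.03.

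Enzymes among the same 15 genes included Elovl2, B4galt5 and Ache. Elovl2, an elongase of very long polyunsaturated fatty acids (chromosome 13, 41182381 to 41220405, minus strand), was at 0.466, 0.553 and 3.75 CPM after saline and at 34.9, 28.8 and 7.46 CPM after cocaine. The log2 fold change of Elovl2 was 3.86 ± 1.51 with an unadjusted p of 0.0179. The lowest cocaine library was replicate 4 and the highest saline library replicate 3, and without saline replicate 3 the value was 5.47. B4galt5, which adds galactose to ceramide-linked glucose in glycolipid synthesis, was at 18.2, 36.1 and 26.8 CPM after saline and at 48.9, 134 and 117 CPM after cocaine, a log2 fold change of 1.88 ± 0.65. Ache encodes acetylcholinesterase, which ends cholinergic signalling (chromosome 5, 137287519 to 137294466, plus strand, with a predicted antisense gene). The Ache level was 12.6, 4.06 and 9.38 CPM after saline, 46.8, 40.6 and 44.5 CPM after cocaine, and 66.5 and 45.3 CPM in the inputs. Its log2 fold change was 2.35 ± 0.94, unadjusted p = 0.0196.

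The other genes higher after cocaine serve varied roles. Med26 is a subunit of the Mediator complex of transcription, Hectd3 a ubiquitin ligase, Tomm40 the import channel of the outer mitochondrial membrane, Txnip an inhibitor of thioredoxin, Disp1 a transporter needed for release of hedgehog proteins, and Cldnd1 a claudin-like membrane protein. Cep131 and Ift22 belong to the centrosome and the primary cilium. Txnip was at 6.99, 4.24 and 1.88 CPM after saline and at 58.5, 10.5 and 9.52 CPM after cocaine. The Txnip difference rested mostly on cocaine replicate 1, since its log2 fold change was 2.60 with that library and 1.21 without it. Ift22 was at 0, 13.7 and 4.5 CPM after saline and at 97.6, 29.6 and 27.6 CPM after cocaine. Pcdhgc3 lies in the gamma protocadherin cluster, whose genes share exons, and reads that HTSeq set aside as ambiguous did not enter its count.

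**Figure D2:**
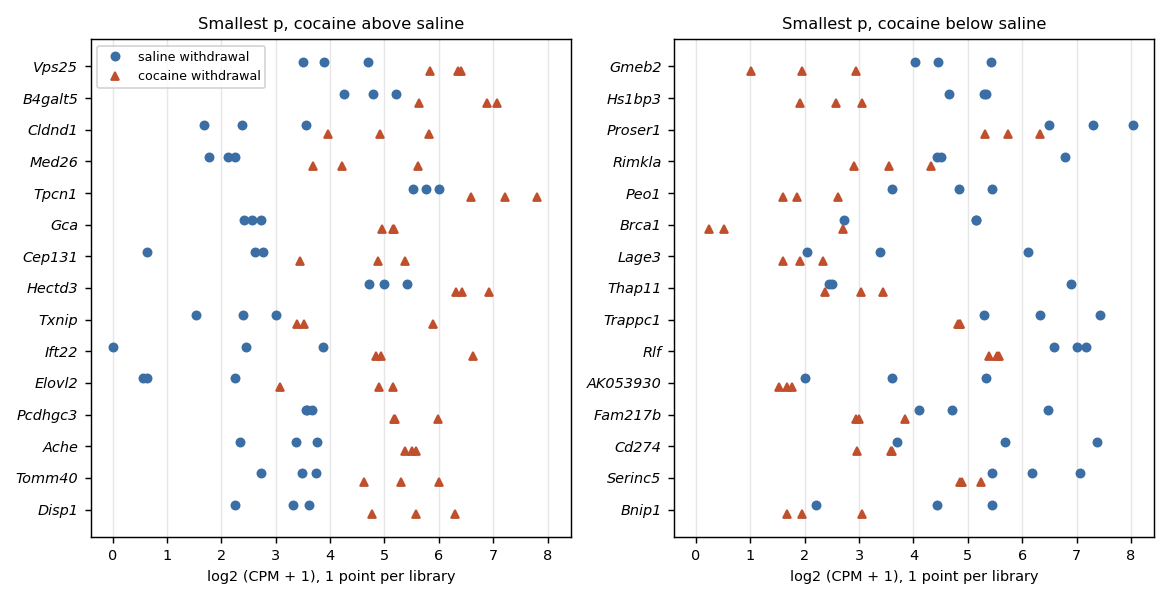
Level of the 15 genes with the smallest unadjusted p in each direction, as log2 of CPM plus 1 (horizontal axis), with 1 point per library (circles saline, triangles cocaine). The groups do not overlap in any of the 15 genes on the left; on the right they overlap in Lage3, Thap11 and Bnip1.

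Among the 15 genes with the smallest unadjusted p that were lower after cocaine, log2 fold changes ran from -3.61 to -1.40, the adjusted p of each was again 1 in edgeR's quasi-likelihood test, and 12 did not overlap between the groups, where the share over all genes was 2.63%. Rlf, a zinc finger protein (chromosome 4, 121145373 to 121215084, minus strand), had a narrow spread in both groups. It was at 144, 95.5 and 127 CPM after saline and at 46.8, 45.2 and 40.7 CPM after cocaine, a log2 fold change of -1.47 ± 0.64 (SE) at an unadjusted p of 0.0312. Proser1, a proline- and serine-rich protein, was at 157, 260.5 and 89.5 CPM after saline and at 52.7, 39.0 and 79.3 CPM after cocaine, so that the lowest saline and the highest cocaine library lay close together. Gmeb2, a protein that binds elements modulating glucocorticoid responses, was at 42.0, 15.3 and 20.8 CPM after saline and at 6.68, 1.01 and 2.84 CPM after cocaine, with the smallest p of the 15 (0.0107) and a log2 fold change of -2.89 ± 1.04. Trappc1, a subunit of a tethering complex for transport vesicles, was at 171, 79.8 and 38.5 CPM after saline and at 28.0, 27.9 and 27.3 CPM after cocaine.

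In several of these genes saline replicate 1, the shallowest of the 6 libraries, stood far above the other saline libraries. Thap11, a transcription factor of the THAP family, was at 119, 4.42 and 4.69 CPM after saline and at 4.21, 7.17 and 9.81 CPM after cocaine. Its log2 fold change of -2.58 ± 1.11 became 0.63 without saline replicate 1. Lage3, a subunit of the complex that makes a universal tRNA modification, was at 67.6, 3.13 and 9.38 CPM after saline and at 2.03, 2.76 and 4.05 CPM after cocaine, and its log2 fold change of -3.16 became -1.08 without that library. Cd274, which encodes the immune checkpoint ligand PD-L1, was at 165, 12 and 50.7 CPM after saline and at 11.2, 6.81 and 11 CPM after cocaine, and its log2 fold change of -2.96 became -1.69. Rimkla, an enzyme that makes the neuropeptide N-acetylaspartylglutamate, rested on another library: it was at 20.5, 21.8 and 109.6 CPM after saline and at 6.54, 10.7 and 19.0 CPM after cocaine, and its log2 fold change was -2.07 with saline replicate 3 and -0.81 without it. Thap11 was the gene of these 15 whose sign turned when single libraries were left out.

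The same contrast was measured a second time in library set 2. In a fit of all 24 immunopurified libraries over the 15854 genes tested, 0 genes passed in set 2 (smallest adjusted p 0.869 with edgeR's quasi-likelihood test, 5.3% at an unadjusted p under 0.05). The difference between the contrasts of the sets, an interaction term, passed in 0 genes too, with 648 (4.09%) at an unadjusted p under 0.05. Limma voom called 0 genes for this difference and DESeq2 19, of which 16 had a group at 0. Of the 15 genes higher after cocaine in set 1, 5 were also above 0 in set 2, where 54.2% of all genes were, and their median log2 fold change there was -0.12. Of the 15 lower genes, 7 were below 0 in set 2 and the median was 0.04. Of the 774 genes whose cocaine libraries all lay above the saline libraries in set 1 and that were tested in set 2, 422 were above 0 there, and 6 separated in the same direction, where 1.7% of all genes did. Of the 408 that lay below in set 1, 175 were below 0 in set 2 and 9 separated the same way, where 1.75% did. The sets share no library, but no label says whether they share animals, and the p-values of the difference treat all libraries as independent.

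**Figure D3:**
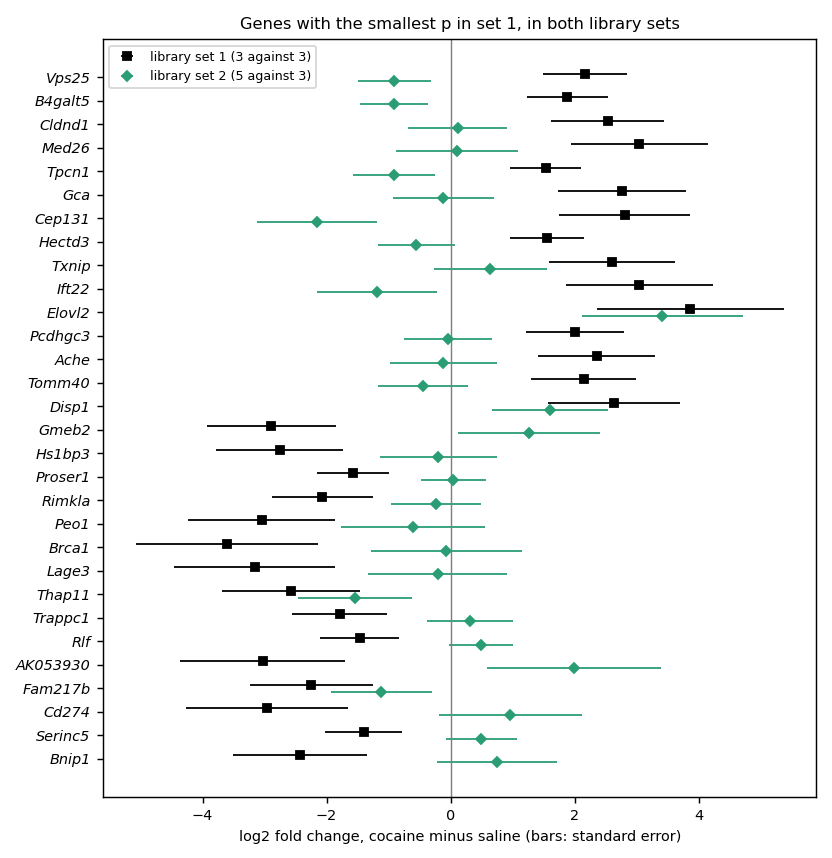
Log2 fold change, cocaine minus saline, of the same 30 genes in library set 1 (squares, 3 against 3 libraries) and library set 2 (diamonds, 5 against 3 libraries), with standard errors as bars. Genes were chosen by p in set 1; in set 2 Elovl2 is at 3.41 and Thap11 at -1.54, while Vps25, Tpcn1 and B4galt5 are at -0.91.

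Elovl2 was the gene of the 30 that had an unadjusted p under 0.05 in the same direction in set 2. Cep131 had one in the opposite direction, at -2.16 ± 0.97 in set 2 (unadjusted p = 0.0337), with a difference between the sets of 4.95 at an unadjusted p of 0.00279. The set 2 levels of Elovl2 were 1.47, 0 and 4.21 CPM after saline and 30.7, 11.8, 15.5, 11.4 and 35.0 CPM after cocaine, so the groups did not overlap there either. The set 2 log2 fold change of Elovl2 was 3.41 ± 1.30 (SE) at an unadjusted p of 0.0133, and the difference between the sets was 0.45 ± 1.67, unadjusted p = 0.789. Elovl2 had been picked out in an earlier analysis of both sets pooled, as had the ribosomal protein gene Rpl18, so neither is independent support. Rpl18 was at 99.3, 139.8 and 54.4 CPM after saline and at 38.9, 63.6 and 119.5 CPM after cocaine in set 1, where the groups overlapped and the log2 fold change was -0.40 ± 0.61. It ran from -0.93 without cocaine replicate 4 to -0.05 without saline replicate 2. In set 2 Rpl18 was at 99.3, 80.0 and 91.2 CPM after saline and at 38, 38.4, 46.4, 44.6 and 43.6 CPM after cocaine, a log2 fold change of -1.10 ± 0.47, and the difference between the sets was 0.65 ± 0.72. Thus the spread of Rpl18 was wide in set 1 and narrow in set 2. Vps25 had a log2 fold change of -0.91 ± 0.59 in set 2, and its difference between the sets was 3.06 ± 0.90, unadjusted p = 0.00192, adjusted p = 1. Ache was at 16.8, 22.3 and 19.3 CPM after saline in set 2 and at 37.6, 26.3, 0.966, 20.6 and 3.11 CPM after cocaine, where the groups overlapped.

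**Figure D4:**
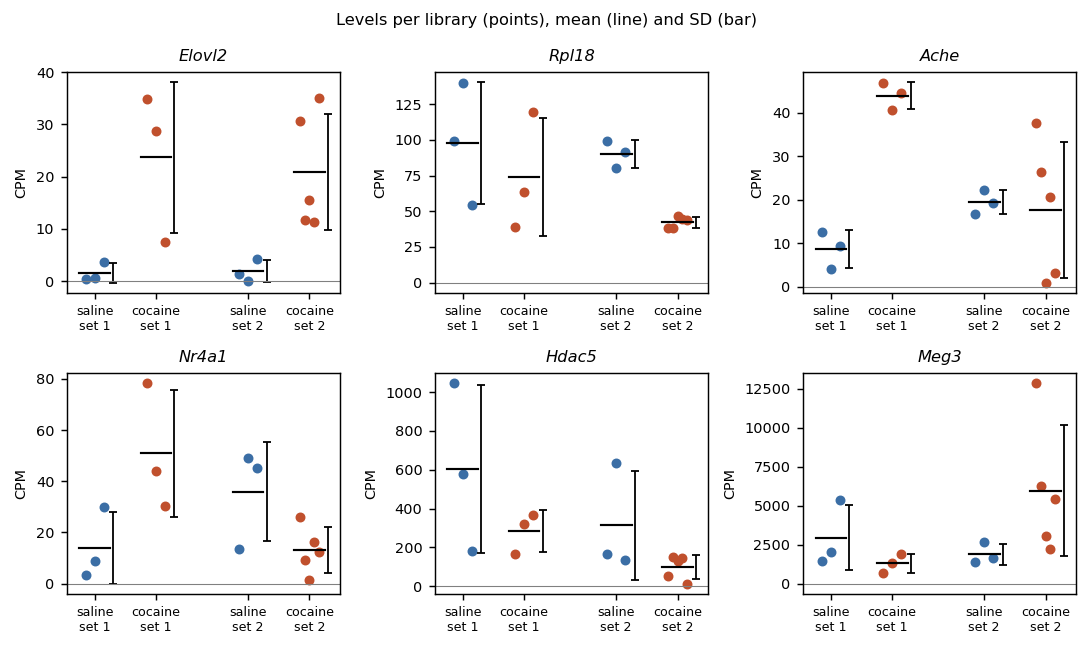
CPM of Elovl2, Rpl18, Ache, Nr4a1, Hdac5 and Meg3 in each library of the saline and cocaine withdrawal groups of set 1 (3 and 3 libraries) and set 2 (3 and 5), with the mean as a line and the SD as a bar. The groups of Elovl2 are apart in both sets, those of Ache and Nr4a1 in set 1 alone and those of Rpl18 in set 2 alone.

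The genes were also read by function, in 37 lists whose tested members make up 739 genes. In these lists 23 genes (3.11%) lay higher after cocaine without overlap and 12 (1.62%) lower, against 4.91% and 2.63% of all genes tested, and 0 passed edgeR's quasi-likelihood test. At an unadjusted p under 0.05 there were 6 list genes higher (0.81%) and 2 lower (0.27%), against 1.32% and 0.7% of all genes. List medians of the log2 fold change ran from -0.43 for nuclear and imprinted noncoding RNA to 1.07 for markers of oligodendrocyte precursors, beside 0.05 over all genes. Over the fits that left out 1 library, the median took both signs in 30 of the 37 lists.

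**Figure D5:**
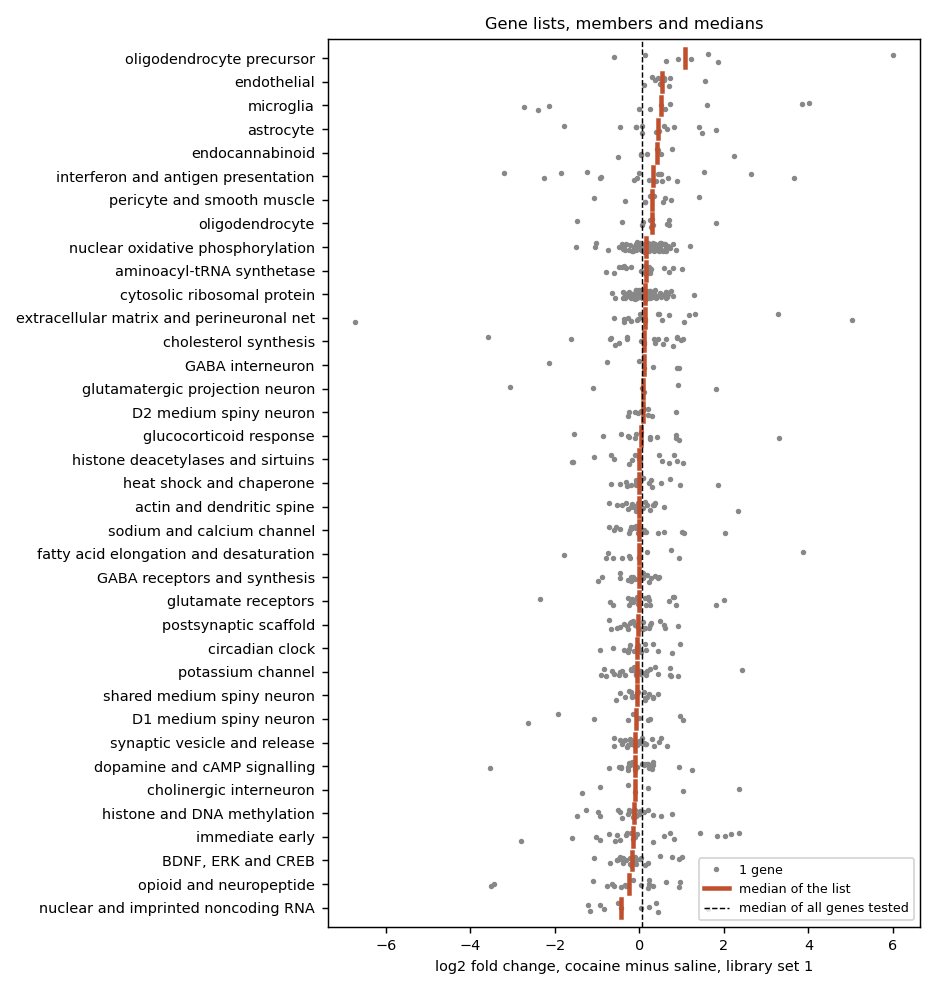
Log2 fold change, cocaine minus saline in library set 1, of each tested member (grey points) of the 37 gene lists, with the list's median (orange bar) and the median of all genes tested (dashed line, 0.05). Most medians lie near that of all genes; oligodendrocyte precursor markers are highest (1.07) and noncoding RNAs lowest (-0.43).

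For the genes that define the tagged neurons no difference was detectable, with wide intervals. Drd2, the dopamine D2 receptor (chromosome 9, 49340627 to 49408177, plus strand), had a log2 fold change of -0.10 ± 0.58 (SE) and a 95% interval from -1.31 to 1.10, which spans both a lower and a higher level by more than 1 log2 unit. Adora2a, the adenosine receptor that opposes D2 signalling in these cells, was at 507, 651 and 565 CPM after saline and at 389, 587 and 1009 CPM after cocaine (log2 fold change 0.20 ± 0.61). Penk, the enkephalin precursor, was at 1949, 3929 and 3550.3 CPM after saline and 1835, 3547 and 4328 CPM after cocaine (0.04 ± 0.64). For Drd2, Adora2a and Penk replicate 1 was the lowest library of both groups, and the sign of the difference turned when single libraries were left out. Of the 10 D2 markers 6 were above 0 (median 0.08), of 18 markers shared by D1 and D2 neurons 8 (median -0.05), and of 10 D1 markers 4 (median -0.08). None of these 3 lists had a member whose groups did not overlap, where 4.91% of all genes lay higher and 2.63% lower without overlap. Gad1, which makes GABA, was at 186, 354 and 308 CPM after saline and at 159, 186 and 268 CPM after cocaine. Chat, the acetylcholine-making enzyme of the cholinergic interneurons that also use the Drd2 promoter, was at 1.40, 3.87 and 24.8 CPM after saline and 0.29, 13.8 and 20.8 CPM after cocaine, a range too wide within each group to compare them. Of the 7 tested cholinergic markers 3 were above 0, and Ache was the member whose groups did not overlap.

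Dopamine and cAMP signalling genes, through which the D2 receptor acts, had 12 of 28 members above 0 and a median of -0.10. The groups were apart in 0 members, against 4.91% of all genes with cocaine higher and 2.63% with cocaine lower. Gnai2, an inhibitory G protein subunit, was at 199.6, 73.6 and 87.4 CPM after saline and at 197, 281 and 212 CPM after cocaine, where saline replicate 1 lay among the cocaine libraries. Its log2 fold change was 0.94 ± 0.47 (SE) at an unadjusted p of 0.0597. Prkar2a, a regulatory subunit of protein kinase A, was at 64.8, 133 and 125 CPM after saline and at 54.8, 56.8 and 85.1 CPM after cocaine.

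Receptors for glutamate and GABA carry the input to these neurons. Of 24 glutamate receptor genes 11 were above 0 (median -0.02), and of 20 GABA receptor and synthesis genes 10 (median -0.02). Grm4, a metabotropic glutamate receptor that dampens release, was at 174, 173 and 186 CPM after saline and at 86.7, 115 and 146 CPM after cocaine (log2 fold change -0.62 ± 0.58 SE), without overlap. Grid1, of the same list, was higher after cocaine without overlap (0.80 ± 0.70, and -0.56 ± 0.61 in set 2). In that list 1 gene lay higher without overlap (4.17%) and 2 lower (8.33%), against 4.91% and 2.63% of all genes. Shank2, a scaffold of the postsynaptic density, was at 137, 181 and 231 CPM after saline and at 100.4, 114 and 129.6 CPM after cocaine (-0.67 ± 0.50). In set 2 Shank2 was higher after cocaine by 0.69 ± 0.42, and the difference between the sets had an unadjusted p of 0.0335.

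Peptide, cannabinoid and channel genes set how these neurons respond to that input. Of 18 opioid and neuropeptide genes 8 were above 0 (median -0.24). The kappa opioid receptor Oprk1, on which dynorphin acts, was at 63.9, 84.0 and 46.9 CPM after saline and at 13.4, 33.6 and 44.5 CPM after cocaine (-1.09 ± 0.88), without overlap, and at 0.06 ± 0.67 in set 2. Of 9 endocannabinoid genes 8 were above 0 (median 0.42, and 0.45 in set 2). Daglb, which makes the endocannabinoid 2-arachidonoylglycerol together with Dagla, was at 5.13, 2.03 and 0.563 CPM after saline and at 11.6, 9.56 and 14.4 CPM after cocaine (2.24 ± 1.36). Leaving out single libraries moved the endocannabinoid median between -0.12 and 0.69. Of 32 potassium channel genes 14 were above 0 (median -0.05) and of 25 sodium and calcium channel genes 11 (median -0.01). Kcnd3, a subunit of the A-type potassium current, was at 126, 76.3 and 118 CPM after saline and 44.3, 76.1 and 63.7 CPM after cocaine, which nearly touched. Kcnj6, a channel opened by G proteins, was at 0, 2.30 and 6.00 CPM after saline and at 8.57, 20.3 and 17 CPM after cocaine (2.42 ± 1.55).

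Of 23 tested immediate early genes, which neurons switch on within minutes of activity, 9 were above 0 and the median was -0.16. Fos was listed at 0 or below 1 CPM in 5 of the 6 libraries and at 6.45 CPM in saline replicate 2, too few counts to compare. Nr4a1, an orphan nuclear receptor induced by activity (chromosome 15, 101254269 to 101274795, plus strand), was at 3.26, 9.03 and 30.0 CPM after saline and at 78.4, 44.0 and 30.3 CPM after cocaine. The highest saline and lowest cocaine libraries of Nr4a1 nearly met, and its log2 fold change was 1.84 ± 0.82 (SE) at an unadjusted p of 0.0355. In set 2 Nr4a1 was at 13.6, 49.0 and 45.2 CPM after saline and at 26.1, 9.07, 1.45, 16.4 and 12.5 CPM after cocaine, a log2 fold change of -1.45 ± 0.74. The difference between the sets was 3.29 ± 1.13, unadjusted p = 0.00666, adjusted p = 1 with edgeR's quasi-likelihood test. The related Nr4a2 was at 0, 4.70 and 0.563 CPM after saline and 4.5, 6.90 and 14.1 CPM after cocaine, with overlap, and the stress gene Gadd45b at 0.466, 3.78 and 3.56 CPM after saline and 23.8, 3.95 and 13.4 CPM after cocaine. In set 2 their log2 fold changes were below 0, at -0.61 ± 1.51 for Nr4a2 and -1.31 ± 1.34 for Gadd45b. Dusp6, of the same list, was lower after cocaine in set 1 (-1.60 ± 1.14, with overlap) and in set 2 (-1.35 ± 1.03). Elk1, a transcription factor downstream of ERK, was at 60.1, 77.0 and 116 CPM after saline and 20, 42.6 and 57.3 CPM after cocaine (-1.08 ± 0.58), and 8 of the 26 genes of the BDNF, ERK and CREB list were above 0 (median -0.18). Mef2a, a transcription factor of the MEF2 family, was at 354, 398 and 313 CPM after saline and 270.1, 238 and 234 CPM after cocaine (-0.52 ± 0.37), without overlap.

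Chromatin enzymes had medians of 0 (17 deacetylase and sirtuin genes, 8 above 0) and -0.12 (25 histone and DNA methylation genes, 7 above 0). Hdac5, a class II histone deacetylase that has been studied in cocaine reward (chromosome 11, 102194432 to 102230166, minus strand), was at 1047, 577 and 183 CPM after saline and at 165, 322 and 369 CPM after cocaine. The groups overlapped through saline replicate 3, and the log2 fold change was -1.08 ± 0.53 (SE) at an unadjusted p of 0.0548, or -0.41 without saline replicate 1. In set 2 Hdac5 was at 168, 637 and 134 CPM after saline and at 50.2, 152, 131, 143 and 13.2 CPM after cocaine, a log2 fold change of -1.67 ± 0.57, and the difference between the sets was 0.54 ± 0.87. Saline replicate 1 in set 1 and saline replicate 2 in set 2 stood above all other libraries of their set. Dnmt1, the maintenance DNA methyltransferase, was at 66.2, 45.9 and 78.8 CPM after saline and at 113, 100.3 and 111 CPM after cocaine (0.77 ± 0.47), without overlap. In set 2 Dnmt1 went the other way (-1.16 ± 0.47), with an unadjusted p of 0.0124 for the difference between the sets. Hdac11 was at 104, 228 and 156 CPM after saline and 99.9, 77.9 and 129.6 CPM after cocaine. Per3, a clock gene, was at 73.7, 43.3 and 71.5 CPM after saline and at 134, 97.8 and 132 CPM after cocaine (0.95 ± 0.53). It was the member of 18 clock genes whose groups did not overlap (5.56%, against 4.91% of all genes with cocaine higher). Of the 18 clock genes 7 were above 0 (median -0.05).

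Actin regulators of dendritic spines had 12 of 26 members above 0 (median -0.01). Limk1, a kinase that stabilises actin by inactivating cofilin, was at 5.60, 10.9 and 4.31 CPM after saline and at 81.6, 3.13 and 21.2 CPM after cocaine. Its log2 fold change of 2.34 ± 1.03 (SE, unadjusted p = 0.0330) rested on cocaine replicate 1 and was 0.81 without it. In set 2 Limk1 was at 1.77, 3.27 and 1.05 CPM after saline and at 22.1, 0.907, 21.2, 1.90 and 3.11 CPM after cocaine, so that here too a few cocaine libraries were high and the rest lay with saline. The set 2 log2 fold change of Limk1 was 2.30 ± 1.12 (unadjusted p = 0.0484, edgeR's quasi-likelihood test). Its difference between the sets was 0.04 ± 1.98. Synaptic vesicle genes had 10 of 31 members above 0 (median -0.10), and postsynaptic scaffold genes 11 of 24 (median -0.04). Among stress and immune lists, 9 of 19 heat shock genes (median -0.01), 8 of 15 glucocorticoid response genes (median 0.04) and 11 of 20 interferon and antigen presentation genes (median 0.31) were above 0. The interferon median ran from -0.32 without cocaine replicate 1 to 1.60 without saline replicate 1. Of 21 extracellular matrix genes 13 were above 0 (median 0.13).

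Noncoding RNAs that stay mostly in the nucleus had the lowest median of the lists (-0.43, 5 of 11 above 0), while all genes had a median of 0.05. The list's median ran from -0.78 to 0.03 when single libraries were left out, and was 0.03 without saline replicate 3. Meg3, an imprinted noncoding RNA (chromosome 12, 109541001 to 109571726, plus strand, overlapping several small RNA genes), was at 1449, 2058 and 5354 CPM after saline and at 663, 1318 and 1921 CPM after cocaine. The groups of Meg3 overlapped, and saline replicate 3 was far above the rest. Its log2 fold change was -1.18 ± 0.53 (SE) at an unadjusted p of 0.0369, and -0.43 without saline replicate 3. In set 2 Meg3 was at 1358, 2652 and 1645 CPM after saline and at 12886, 6251, 3037, 2197 and 5464 CPM after cocaine, a log2 fold change of 1.66 ± 0.52. The difference between the sets was -2.87 ± 0.75, unadjusted p = 0.000616, adjusted p = 1. Snhg11, a snoRNA host transcript, was at 258, 266 and 1337 CPM after saline and at 164, 327 and 311 CPM after cocaine in set 1, a log2 fold change of -1.22 ± 0.62 that was 0.03 without saline replicate 3. In set 2 Snhg11 was at 361, 903 and 423 CPM after saline and at 4977, 1788, 1337, 927 and 2325 CPM after cocaine. The set 2 median of the list was 1.28 with 10 of 11 members above 0, opposite to set 1. Meg3 was at 9981 and 7219 CPM and Snhg11 at 2560 and 1855 CPM in the inputs, whose total RNA includes nuclear RNA, above all 6 libraries of set 1. The list as a whole did not share this. It summed to 12775 to 28466 CPM after saline and 16129 to 29054 CPM after cocaine. The saline input had 37302 CPM, and the nonescalating input had 20080.4 CPM, within these ranges. The part of nuclear RNA carried through the pull-down in these values was not tested.

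The 5 genes with the smallest p for the difference between the sets were Tmem181b-ps, Zfp182, Meg3, Iigp1 and Snhg11, each with an adjusted p of 1 in edgeR's quasi-likelihood test. DESeq2 called Tmem181b-ps (adjusted p = 0.0148), Zfp182 (0.024) and Iigp1 (0.00643, with a group at 0), and neither Meg3 nor Snhg11. Zfp182, a zinc finger protein, was at 107, 26.7 and 28.9 CPM after saline and at 30.4, 56.0 and 14.9 CPM after cocaine in set 1. In set 2 it was at 8.25, 8.71 and 5.96 CPM after saline and at 89.5, 76.8, 22.7, 49.5 and 250.0 CPM after cocaine. The groups of Zfp182 overlapped in set 1 (log2 fold change -0.68 ± 0.80, and 0.28 without saline replicate 1) and were apart in set 2 (3.67 ± 0.84). Tmem181b-ps, annotated as a transcribed pseudogene, was at 47.6, 31.0 and 100.2 CPM after saline and at 29.2, 26.8 and 34.5 CPM after cocaine in set 1. Its log2 fold change was -0.98 ± 0.61, against 2.12 ± 0.54 in set 2. Reads that aligned both to it and to its near-identical gene did not enter its count. Iigp1, an interferon-induced GTPase, was at 123, 1.57 and 3.56 CPM after saline and at 10.9, 1.66 and 2.91 CPM after cocaine. Its difference in set 1 rested on saline replicate 1, since the log2 fold change was -3.05 with that library and 1.01 without it. In set 2 Iigp1 was at 0 in all 3 saline libraries and at 5.61, 6.35, 7.24, 17.1 and 3.11 CPM after cocaine.

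Genes of protein synthesis and of mitochondria are the longest lists. Of 77 cytosolic ribosomal protein genes 50 were above 0 (median 0.13), and of 74 nuclear genes of oxidative phosphorylation 50 (median 0.16), whereas in set 2 the counts were 10 of 77 (median -0.39) and 14 of 74 (median -0.22). Leaving out single libraries of set 1 moved the ribosomal median between -0.15 and 0.48 and the oxidative phosphorylation median between -0.04 and 0.40, across 0 in both cases. Rpl29, a protein of the large ribosomal subunit, was at 15.4, 58.6 and 39.2 CPM after saline and at 73.5, 126 and 76.2 CPM after cocaine. It was the ribosomal protein gene whose groups did not overlap (1.28 ± 0.54 SE, unadjusted p = 0.0284 in edgeR's quasi-likelihood test). That was 1.3% of the list, against 4.91% of all genes with cocaine higher. Reads that aligned both to Rpl29 and to a processed pseudogene did not enter its count. Ndufv1, a core subunit of complex I, was at 49.0, 74.3 and 57.2 CPM after saline and at 98.5, 95 and 85.5 CPM after cocaine (0.63 ± 0.53). Ndufb6, an accessory subunit of the same complex, was at 22.8, 20.6 and 17.4 CPM after saline and 1.89, 13.9 and 5.61 CPM after cocaine (-1.50 ± 1.12). In set 2 Ndufb6 was again lower without overlap (-1.29 ± 0.87), and Ndufv1 was at 0.06 ± 0.49. In the whole list 4.05% of genes were apart in set 1 with cocaine higher and 2.7% with cocaine lower, near the 4.91% and 2.63% of all genes. Lars, which charges leucine onto its tRNA, was at 17.7, 32.6 and 22.1 CPM after saline and 42.8, 45.8 and 57.9 CPM after cocaine (1.01 ± 0.65), without overlap, and 13 of 20 tRNA synthetase genes were above 0 (median 0.15). In set 2 Lars went the other way, lower after cocaine without overlap (-0.92 ± 0.55). The difference between the sets for Lars had an unadjusted p of 0.0285 in edgeR's quasi-likelihood test. Only 2 of 20 synthetase genes were above 0 in set 2 (median -0.35).

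Sterol and fatty acid genes had medians of 0.12 (21 cholesterol synthesis genes, 13 above 0) and -0.02 (15 elongation and desaturation genes, 6 above 0). Srebf2, the transcription factor that drives cholesterol synthesis, was at 40.6, 80.6 and 83.1 CPM after saline and at 87.7, 123 and 167 CPM after cocaine (0.88 ± 0.59 SE). The lowest cocaine and the highest saline library of Srebf2 lay close together without overlapping. In set 2 the cholesterol median was -0.48 and that of the fatty acid genes 0.29. Elovl2 was the fatty acid gene whose groups did not overlap (6.67% of the list, against 4.91% of all genes with cocaine higher).

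Markers of glia and vessels are given because endothelial and pericyte markers lay above the inputs in both groups. All 12 endothelial markers were above 0 (median 0.54), as were 11 of 13 oligodendrocyte markers (median 0.29), 7 of 8 precursor markers (median 1.07), 10 of 14 astrocyte markers (median 0.43) and 8 of 10 pericyte markers (median 0.30), against 52.9% of all genes. In set 2, 8 of 12 endothelial markers were above 0 (median 0.23). So were 10 of 13 oligodendrocyte markers (median 0.37) and 11 of 14 astrocyte markers (median 0.51). Precursor markers had 4 of 8 above 0 in set 2 (median 0.12) and pericyte markers 4 of 10 (median -0.07), against 54.2% of all genes. Cldn5, a claudin of the blood-brain barrier, was at 28.4, 9.68 and 20.4 CPM after saline and at 69.3, 68.7 and 32.8 CPM after cocaine (1.55 ± 0.86 SE, unadjusted p = 0.0855), without overlap. Cdh5, the cadherin of endothelial junctions, was at 269, 59.2 and 156 CPM after saline and at 341, 290 and 168 CPM after cocaine, with overlap. Leaving out single libraries moved the endothelial median between 0.08 and 1.55, that of precursors between 0.46 and 1.53 and that of oligodendrocytes between 0.01 and 0.44. The astrocyte median ran from -0.04 (without cocaine replicate 4) to 0.61, and the pericyte median from -0.11 (without cocaine replicate 1) to 0.70. Gpr17, a receptor of cells maturing into oligodendrocytes, was at 19.1, 7.28 and 2.25 CPM after saline and 24.7, 65.1 and 12.1 CPM after cocaine. Gja1, the astrocyte gap junction protein, lay the other way at 58.7, 18.5 and 11.8 CPM after saline and 3.20, 4.69 and 17.9 CPM after cocaine (-1.78 ± 1.12, from -2.87 without cocaine replicate 4 to -0.82 without saline replicate 1). Summed astrocyte markers were 1134 to 2417 CPM after saline and 1795 to 2259 CPM after cocaine, oligodendrocyte markers 449 to 472 and 430.5 to 794 CPM, and precursor markers 174 to 315 and 258 to 334 CPM. Markers of GABA interneurons (4 of 7 above 0, median 0.12) and of glutamatergic projection neurons (4 of 6, median 0.08) lay below the inputs in summed level. Microglial markers (7 of 11 above 0, median 0.51) had few counts, at 8.85 to 52.2 and 26.8 to 37.3 CPM for the whole list, and the defining marker C1qa was at 0 in all 3 saline libraries and 2 of the cocaine libraries. Of the 10 microglial markers tested in set 2, 4 were above 0 (median -0.31). The part of non-neuronal RNA in the gene values above was not tested gene by gene. With the mean non-neuronal marker level as a covariate 0 genes passed edgeR's quasi-likelihood test. The fit without that covariate also gave 0, so the count cannot show how large that part was.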

How the data were processed

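RNA was measured in 24 immunopurified and 2 input libraries. The deposited values are counts of reads for each gene symbol, 1 file per library, in whole numbers without normalization. The submitters' processing notes name STAR 2.0.0e, HTSeq and mm10, while for the annotation, the strand setting and the HTSeq version the sources used here give nothing. Summary rows of HTSeq and the row for unknown features (0 or 1 count) did not enter. Groups and replicate numbers follow the sample titles. The description of the 5 nonescalating libraries without withdrawal in their titles carries the word for withdrawal; these libraries enter only the estimate of the spread.

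The main test was edgeR 4.0.16's quasi-likelihood test in R 4.3.3 on the 16 immunopurified libraries of set 1 (1.90 to 17.5 M counts in genes, M for 1e6), with TMM factors, a minimum count of 10 in filterByExpr and Benjamini-Hochberg adjustment at 0.05 over 16569 of 32657 genes. Residual degrees of freedom were 11. The difference between sets was fitted on all 24 libraries over the 31735 genes listed in both, of which 15854 were tested. Levels are CPM with TMM factors, and input levels are CPM by library size. Log levels of libraries use a prior count of 2, while fold changes are those of the quasi-likelihood fit, without that prior count. The SE of a log2 fold change is its size over the root of the F statistic. Each library was counted as 1 replicate. The smallest chi-square per degree of freedom was 53.8 between libraries of 1 group and 31.4 between libraries of different groups. Such values cannot show whether libraries came from separate animals. Alternatives used DESeq2 1.42.0 and limma 3.58.1, and the scripts were tested on simulated data. Positions are from GENCODE M21 (GRCm38, the assembly of mm10), which held 182 of 184 named symbols; Peo1 and AK053930 had no match.

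Named genes are the 15 with the smallest p in each direction whose mean log2 CPM reached 2, without predicted symbols, up to 4 members of each of 37 lists with the smallest p, Drd2, Adora2a, Penk, Drd1, Tac1, Chat, Fos, Elovl2 and Rpl18, and the 5 with the smallest p for the difference between sets. Pqlc3 was added after its values were seen. The libraries, members and lists were chosen with earlier results of these data known. Only some of these genes are printed.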

Additional observations from a re-analysis of the deposited data

How the results depend on the processing

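The count of genes that passed stayed at 0 under limma voom, median-of-ratios factors, other filters, other libraries in the fit, covariates and the label conflict, and was 0 to 0 without each replicate in turn, for the contrast as for the difference between sets. DESeq2 gave 8 for the contrast and 19 for the difference. Replicate numbers 1 and 2 occur in both groups; deviations of same-numbered libraries correlated by 0.277 and 0.086, and those of other pairs by -0.224 to 0.168, so the numbers do not establish a pairing. With the replicate block, 0 genes passed in 16 libraries and in the difference, and 3 in the 6 libraries alone (Hdac5 -1.76, Ighmbp2 7.44 and Prickle4 -8.59, adjusted p = 0.0146 each, edgeR). The latter 2 genes were chosen after their values were seen.

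Signs turned as follows, with the cause not tested. With limma voom, Thap11 was 0.04 and Chat -0.19. With the share outside genes as covariate, Drd2 was 0.02 and Drd1 0.01, and with non-neuronal markers Drd2 was 0.31 and Foxp2 0.15. With the replicate block in 16 libraries, Drd2 was 0.46, Drd1 0 and Meis2 0.01, and in 6 libraries Drd2 was 0.19, Adora2a -0.27, Penk -0.13 and Drd1 0.13. With the nonescalating libraries counted as cocaine withdrawal, Adora2a was -0.02, Penk -0.21, Chat -0.04 and Rian 0.21. Without replicate 1 of both groups, chosen after seeing the data for their high share outside genes, 0 genes passed, Thap11 was 0.89 and Zfp182 0.35. Leaving out each replicate gave -3.12 to 0.63 for Thap11, -0.23 to 0.32 for Penk, -0.51 to 2.11 for Chat, -1.26 to 0.28 for Zfp182, -4.20 to 1.01 for Iigp1, -0.47 to 0.28 for Drd2, -6.89 to 1.34 for Fos, -1.03 to 0.64 for Foxp2, -1.30 to 0.01 for Sst, -0.55 to 0.39 for Drd1, -1.59 to 0.03 for Snhg11, -0.91 to 0.03 for Rian and -0.24 to 0.47 for Adora2a. The count of 1248 genes without overlap was 1084 to 1294 under other scaling and filters. Depth limits genes of a few CPM, above all in saline replicate 1.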
